A study of Mus musculus with 46 samples.

Results

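The genes described here are the ligands of the chemokine receptor CXCR2 and the receptor itself, chosen by name from the FPKM table (fragment counts scaled to transcript length and library size) of a study of PD-1 blockade in MC-38 tumors. They are 6 genes (Cxcl1, Cxcl2, Cxcl3, Cxcl5, Cxcl15 and Cxcr2) of the 48795 in the table, named as a family and not by a threshold on any value, though with earlier results of these data known. Bulk RNA-seq covered 46 samples in 8 groups. MC-38 is a mouse colon carcinoma line. It was sampled 3 times in culture and grown under the skin of the right flank in female young adult C57BL/6NTac mice.

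The baseline group held 3 tumors from untreated WT mice. WT mice given an isotype control antibody or the anti-mouse PD-1 antibody muDX400 (PD-1 Ab, 5 mg/kg) gave 5 tumors per arm after 1 dose (4 days of treatment, day 11 after implantation) and 5 per arm after 2 doses (8 days, day 15). The conditional model held 10 tumors labelled PD-1cKO and 10 labelled WT, both marked 28 days, and the methods give an earlier day for their collection. PD-1cKO mice carried Rosa26-creERT2 and Pdcd1 fl/fl, so tamoxifen induces deletion of the floxed exons in every cell type that expresses the Cre, and not in T cells alone. Both arms received tamoxifen at 40 mg/kg on 5 days. The controls were littermates, and whether they carried the floxed allele is not given in the sources used here. Each tumor was taken as 1 sample, and nothing states that cultures were independent, so p-values that involve them may measure technical spread.

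In the mouse, CXCL1, CXCL2, CXCL3 and CXCL5 are secreted chemokines with the ELR motif that bind CXCR2, a G protein-coupled receptor carried mainly by neutrophils. CXCL15 (lungkine) is a related ELR chemokine known chiefly from lung and glandular epithelium. Their transcription in epithelial cells, fibroblasts and macrophages is induced by interleukin-1, TNF and interleukin-17 through NF-kB, and the G-CSF made from Csf3 acts beside them by releasing neutrophils from bone marrow. Neutrophils hold little RNA per cell, so bulk tumor RNA samples them thinly.

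The 5 ligand genes lie on the forward strand of chromosome 5 within 147 kb, and Cxcr2 lies on chromosome 1 (GRCm38, GENCODE M21 annotation). From the centromeric end the cluster holds Cxcl5 (ENSMUSG00000029371, chr5:90759360-90761624), the platelet genes Ppbp and Pf4, Cxcl3 (ENSMUSG00000029379, chr5:90786103-90789600), Cxcl15 (ENSMUSG00000029375, chr5:90794534-90803067), Cxcl1 (ENSMUSG00000029380, chr5:90891241-90893115) and Cxcl2 (ENSMUSG00000058427, chr5:90903871-90905938). Cxcr2 is ENSMUSG00000026180 (chr1:74153989-74161246, forward strand). Cxcl2 and Cxcl3 share sequence, with 5.84% of the 50-base stretches of Cxcl2 transcripts found also in Cxcl3, so a few of their reads could be split between them. Cxcl1 shares no such stretch with another gene.

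The promoters of the 3 ligands below are printed because they hold the same NF-kB type site a short distance before the start, marked in capitals. They are the 150 bases before the transcription start in RefSeq (GRCm38.p6, forward strand), 5′ to 3′.
Cxcl1 (chr5:90891095-90891244): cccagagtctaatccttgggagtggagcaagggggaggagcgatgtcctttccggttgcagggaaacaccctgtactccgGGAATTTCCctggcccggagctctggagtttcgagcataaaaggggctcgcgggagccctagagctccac
Cxcl2 (chr5:90903749-90903898): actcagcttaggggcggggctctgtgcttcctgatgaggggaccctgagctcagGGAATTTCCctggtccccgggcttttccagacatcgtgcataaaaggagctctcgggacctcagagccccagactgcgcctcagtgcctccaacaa
Cxcl3 (chr5:90785951-90786100): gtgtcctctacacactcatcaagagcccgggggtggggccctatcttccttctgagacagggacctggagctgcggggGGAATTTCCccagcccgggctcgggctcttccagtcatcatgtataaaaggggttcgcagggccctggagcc
The letters GGAATTTCC were searched on both strands in the 250 bases before each start and were found once in Cxcl1 (-70 to -62), once in Cxcl2 (-96 to -88) and once in Cxcl3 (-72 to -64). They were not found in that window of Cxcl15 or Cxcr2. Of all 32851 such windows in the table, 94 (0.286%) hold them. Promoters were in the table for 5 of the 6 genes, and Cxcl5 was the one without an entry. A match is a description of the letters and not a measurement of binding.

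Libraries differed in depth. Taking the smallest step of the low FPKM values as 1 fragment, cultures held 21.3 to 27.7 M mapped fragments (M, 1e+06), the WT and PD-1cKO tumors 20.8 to 55.2 M, and baseline and antibody-study tumors 8.22 to 12.8 M, apart from isotype replicate 1 of day 11 at 30.6 M. That library stood apart: 54.6% of its FPKM was mitochondrial, against 3.45% to 4.31% in the other 4 tumors of its group. Summed FPKM differed too, at 598599 to 1.22e+06 in PD-1cKO and 621233 to 946853 in WT tumors. At day 15 it was 455797 to 569885 in isotype and 459622 to 491243 in PD-1 Ab tumors. Values were not rescaled, so levels may not share 1 scale between the antibody study and the conditional model, or among PD-1cKO tumors. Pdcd1 was 5.05 to 19.9 FPKM in tumors labelled PD-1cKO and 1.71 to 7.02 FPKM in WT tumors. A gene-level value cannot show the loss of the floxed exons, so it did not check the genotype labels. Of the neutrophil markers, Ly6g was above 0 in 9 of 43 tumors and was highest in PD-1cKO replicate 7 (1.39 FPKM). Csf3r, S100a9 and Ptprc, the gene of CD45, were listed at 0 or near it in the 3 cultures. S100a8 was not, at 0.372, 0.673 and 0.463 FPKM in the cultures, beside 0.399, 0.617 and 0.205 FPKM in the baseline tumors. In bulk tissue, fewer cells of a type and less RNA per cell cannot be told apart.

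Cxcl1 dominated the ligand RNA. It was the highest of the 5 ligands in 43 of 46 samples and made up a median of 85.6% of their summed FPKM (range 17.9% to 100%), against a median of 6.99% for Cxcl2 and 4.38% for Cxcl5. Averaged over the 43 tumors, Cxcl1 stood at 6.75 FPKM, above 73.0% of the 31493 genes detected in tumors. Cxcl2 averaged 0.677, Cxcl5 0.399, Cxcr2 0.198, Cxcl3 0.135 and Cxcl15 0.0697 FPKM. FPKM is scaled by length, so these levels can be set side by side between genes.

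**Figure D1:**
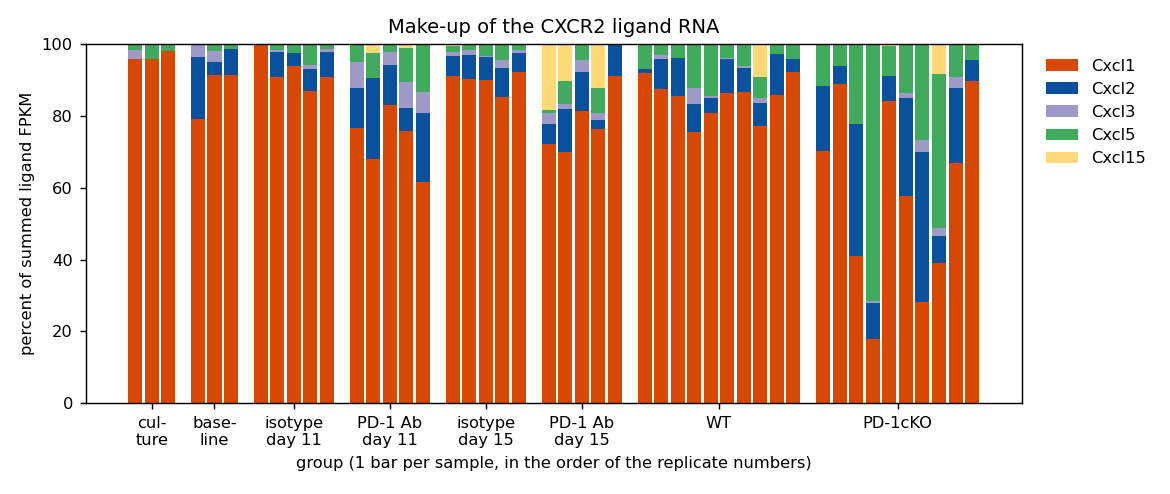
Share of each of the 5 ligands in their summed FPKM (percent, y axis), 1 bar per sample and grouped along the x axis. Cxcl1 fills most of every bar except in several PD-1cKO tumors, where it falls to 17.9% in replicate 4 and Cxcl5 or Cxcl2 takes its place.

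Cxcl1, a main neutrophil chemoattractant, was present in cultured MC-38 cells, at 4.03, 2.79 and 3.42 FPKM. The 3 baseline tumors held 2.03, 2.88 and 4.43 FPKM, which spanned the culture values. In isotype control tumors of day 11 Cxcl1 was 10.0, 26.5, 8.34, 8.75 and 41.01 FPKM. At day 15 it was 22.8, 15.7, 15.0, 7.49 and 16.3 FPKM. Every isotype control tumor of both days thus lay above every culture and every baseline tumor.

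The PD-1 Ab tumors of day 11 had 20.8, 3.01, 5.36, 3.72 and 4.33 FPKM, and replicate 1 alone was as high as the isotype controls. At day 15 the 5 PD-1 Ab tumors lay close together at 4.16, 4.05, 4.36, 3.29 and 4.73 FPKM. WT tumors of the conditional model ranged from 2.42 to 7.35 FPKM with a median of 2.98, and PD-1cKO tumors from 0.576 to 2.96 FPKM with a median of 1.84.

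**Figure D2:**
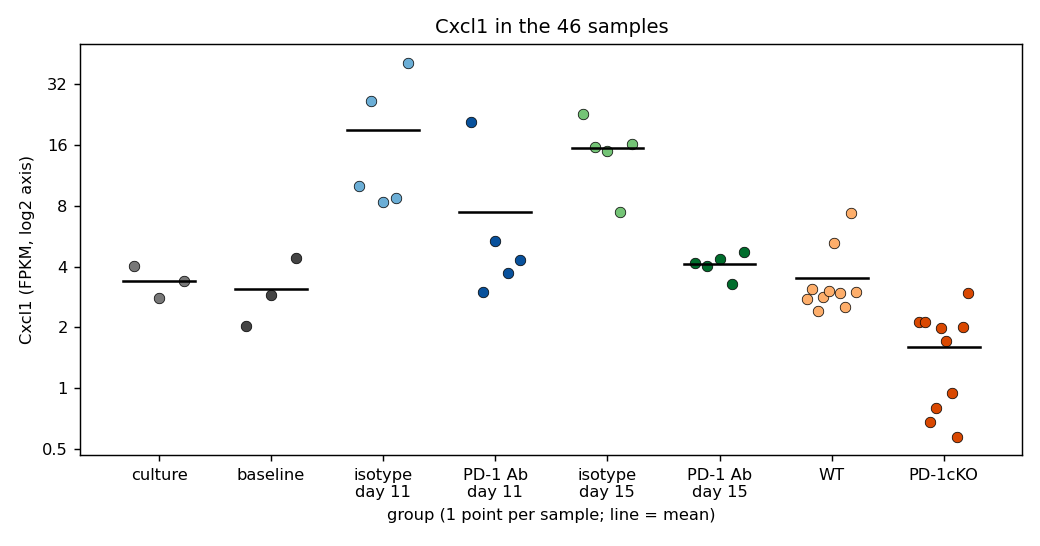
Cxcl1 in FPKM (log2 axis) in the 8 groups, with 1 point per sample and a line at the group mean. Isotype control tumors sit at 7.49 to 41.01 FPKM, PD-1 Ab tumors of day 15 at 3.29 to 4.73 FPKM, and PD-1cKO tumors at 0.576 to 2.96 FPKM.

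By group mean the order of Cxcl1 was isotype day 11 (18.9 ± 14.5 FPKM, SD, n = 5), isotype day 15 (15.5 ± 5.45, n = 5), PD-1 Ab day 11 (7.45 ± 7.53, n = 5), PD-1 Ab day 15 (4.12 ± 0.529, n = 5), WT (3.52 ± 1.56, n = 10), culture (3.41 ± 0.620, n = 3), baseline (3.11 ± 1.22, n = 3) and PD-1cKO (1.59 ± 0.797, n = 10). Neighbours in the orders of Cxcl1, Cxcl2, Cxcl3 and Cxcl5 were compared by 2-sided permutation tests, exact except for WT against PD-1cKO. None of the 28 pairs passed after Benjamini-Hochberg adjustment, the lowest adjusted p of these exact tests being 0.410. Neighbours from different experiments differ in more than treatment, and for 3 samples against 3 the smallest exact p is 0.1.

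The first question was whether PD-1 Ab changed the ligands after 1 dose. None of the 4 members tested passed (an adjusted p under 0.01 in limma and at least a 2-fold change, tested where a gene averaged 0.5 FPKM or more in an arm), and the share of all tested genes that passed was 0%. Cxcl1 was lower by 1.42 on the log2 scale (SE 0.57, 95% interval -2.67 to -0.17, adjusted p = 0.728 from limma), and it was the only member of the 4 with an unadjusted p under 0.05, as were 895 of 14556 genes. In 4 of 5 PD-1 Ab tumors Cxcl1 lay below all isotype tumors. The log2 changes of the other tested members were 0.58 for Cxcl2, 1.22 for Cxcl3 and 0.66 for Cxcl5, with intervals that held 0. The median of all tested genes was 0.26 in this comparison, and median-of-ratios scaling brought it to 0.01, with Cxcl1 then lower by 1.67 (adjusted p = 0.337 in limma). Without the library of high mitochondrial share the median was -0.04, and Cxcl2 turned to -0.14.

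Replicate 1 of the PD-1 Ab tumors of day 11 and replicate 5 of the isotype tumors stood out for several members at once. The PD-1 Ab replicate had the highest Cxcl3 (1.94 FPKM, about 22 fragments) of all 46 samples, with Cxcl1 at 20.8, Cxcl2 at 3.07, Cxcl5 at 1.36 and Cxcr2 at 0.469 FPKM. The isotype replicate had the highest Cxcl1 (41.01 FPKM) and Cxcl2 (3.18 FPKM), with Cxcr2 at 0.409 FPKM. These 2 tumors also had the highest S100a9 of their groups, at 7.15 and 10.6 FPKM.

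After 2 doses Cxcl1 fell under PD-1 Ab. It dropped from 15.5 ± 5.45 to 4.12 ± 0.529 FPKM (SD, n = 5 each), a log2 change of -1.81 (SE 0.24, 95% interval -2.34 to -1.28, 3.51-fold lower, adjusted p = 0.00106 in limma), and all 5 treated tumors lay below all 5 controls. It was 1 of 2 members tested that passed, where 5.3% of all 15062 tested genes did, and 758 of those 799 genes rose while 41 fell. Cxcl2, which is encoded next to Cxcl1, was 1.45, 1.15, 1.06, 0.720 and 0.914 FPKM in the controls and 0.324, 0.685, 0.580, 0.1002 and 0.469 FPKM in treated tumors. Those groups did not overlap either, but its log2 change of -1.24 (SE 0.38) missed the limit (adjusted p = 0.0341 in limma), and it rested on 1 to 9 fragments per treated tumor. How many of all tested genes separated in this way was not counted, here or in the other comparisons. At day 15, 39.7% of all tested genes had an unadjusted p under 0.05 in limma.

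Cxcl3, Cxcl5 and Cxcr2 were below the filter at day 15. Their means were 0.186 ± 0.0725 FPKM in controls and 0.107 ± 0.0760 under PD-1 Ab for Cxcl3, 0.380 ± 0.106 and 0.192 ± 0.162 for Cxcl5, and 0.132 ± 0.0821 and 0.0480 ± 0.0351 for Cxcr2 (SD, n = 5). Fitted without a filter, none passed, with log2 changes of -0.52 for Cxcl3, -0.93 for Cxcl5 and -0.61 for Cxcr2. At 0 to 9 fragments per tumor for Cxcr2, a difference was not detectable at this depth.

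Among 24 genes listed as inducers and regulators of these ligands, 22 were tested at day 15 and 1 rose and 1 fell, with a median log2 change of -0.03 beside -0.04 for all tested genes. The gene that fell was Csf3, which encodes G-CSF, at 2.60, 1.52, 1.10, 1.13 and 1.70 FPKM in controls and 0.254, 0.180, 0.332, 0.527 and 0.142 FPKM under PD-1 Ab (log2 change -2.16, SE 0.33, adjusted p = 0.00172 in limma). The groups of Csf3 did not overlap. The gene that rose was Il1rn, the interleukin-1 receptor antagonist, from 8.17 to 22.3 FPKM (log2 change 1.43). Il1b, a main inducer of Cxcl1, averaged 28.2 FPKM in controls and 26.7 under PD-1 Ab (log2 change -0.07, adjusted p = 0.824), and Il17a was listed at 0 in all 46 samples.

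The neutrophil markers did not move one way at day 15. Of 18 listed, 16 were tested, 5 rose and 1 fell, with a median log2 change of 0.64 over the list and -0.04 over all tested genes. Acod1 (13.1 against 1.73 FPKM, log2 change 2.83) and Clec4d (6.62 against 1.124 FPKM, 2.35) had the largest rises, and both are also expressed by activated macrophages. S100a8, an abundant neutrophil calcium-binding protein, fell from 3.30 to 0.637 FPKM (adjusted p = 0.00836 in limma). The cultures held 0.372 to 0.673 FPKM of S100a8, so the treated tumors were near the level of culture. S100a9 was at 3.64 and 0.991 FPKM without passing (adjusted p = 0.0615 in limma). Csf3r, the G-CSF receptor, rose from 3.695 to 15.7 FPKM (log2 change 1.98). Ly6g was listed at 0 in all 5 controls and in 4 of 5 treated tumors. The summed level of the 18 markers was 331 to 387 FPKM in controls and 298 to 422 FPKM under PD-1 Ab.

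Other cell types moved with the fall of Cxcl1. All 8 T cell markers tested rose (Cd8b1 from 1.76 to 18.9 FPKM), as did 7 of 10 macrophage and monocyte markers (Ly6c2 from 8.91 to 37.2 FPKM), 2 of 6 adipocyte and muscle markers (Acta1 and Plin1) and 1 of 6 endothelial markers (Pecam1). Fibroblast, keratinocyte and epithelial lists had none past the limits of 8, 3 and 6 tested. Ptprc was at 18.4 and 52.4 FPKM and did not pass (adjusted p = 0.0133). Adipoq, an adipocyte gene, was 0.541 to 7.25 FPKM in controls and 2.02 to 55.7 FPKM under PD-1 Ab. Of 8 tested other genes of the axis, Pf4 alone passed, rising from 18.5 to 39.6 FPKM. The part of these cell types in the lower Cxcl1 was not tested.

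Cxcl15 was above 0 in 11 of 46 samples, and its highest values were in PD-1 Ab tumors of day 15: 1.05, 0.597 and 0.525 FPKM in replicates 1, 2 and 4, about 25 fragments at most, with 0 in replicates 3 and 5. The 5 isotype tumors of that day had 0.157 FPKM in replicate 1 and 0 in the others. Its mean stayed under the filter, and the unfiltered log2 change was 1.52 (95% interval -0.08 to 3.12, adjusted p = 0.207 in limma). The same 3 tumors had the highest epithelial markers of their group. The summed FPKM of Cdh1, Epcam, Krt7, Krt8, Krt18 and Krt19 was 52.4, 41.3 and 41.9 in replicates 1, 2 and 4, and 27.5 in isotype replicate 1. Over the whole series the sum was 5.87 to 60.7 FPKM in the 7 samples with Cxcl15 over 0.1 FPKM, and 0.616 to 16.6 FPKM in the other 39. The 3 cultures of MC-38 cells had the lowest sums, at 0.616 to 0.742 FPKM, with Cxcl15 at 0. This comparison was chosen after its values were seen, and the part of epithelial cells in Cxcl15 was not tested.

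**Figure D3:**
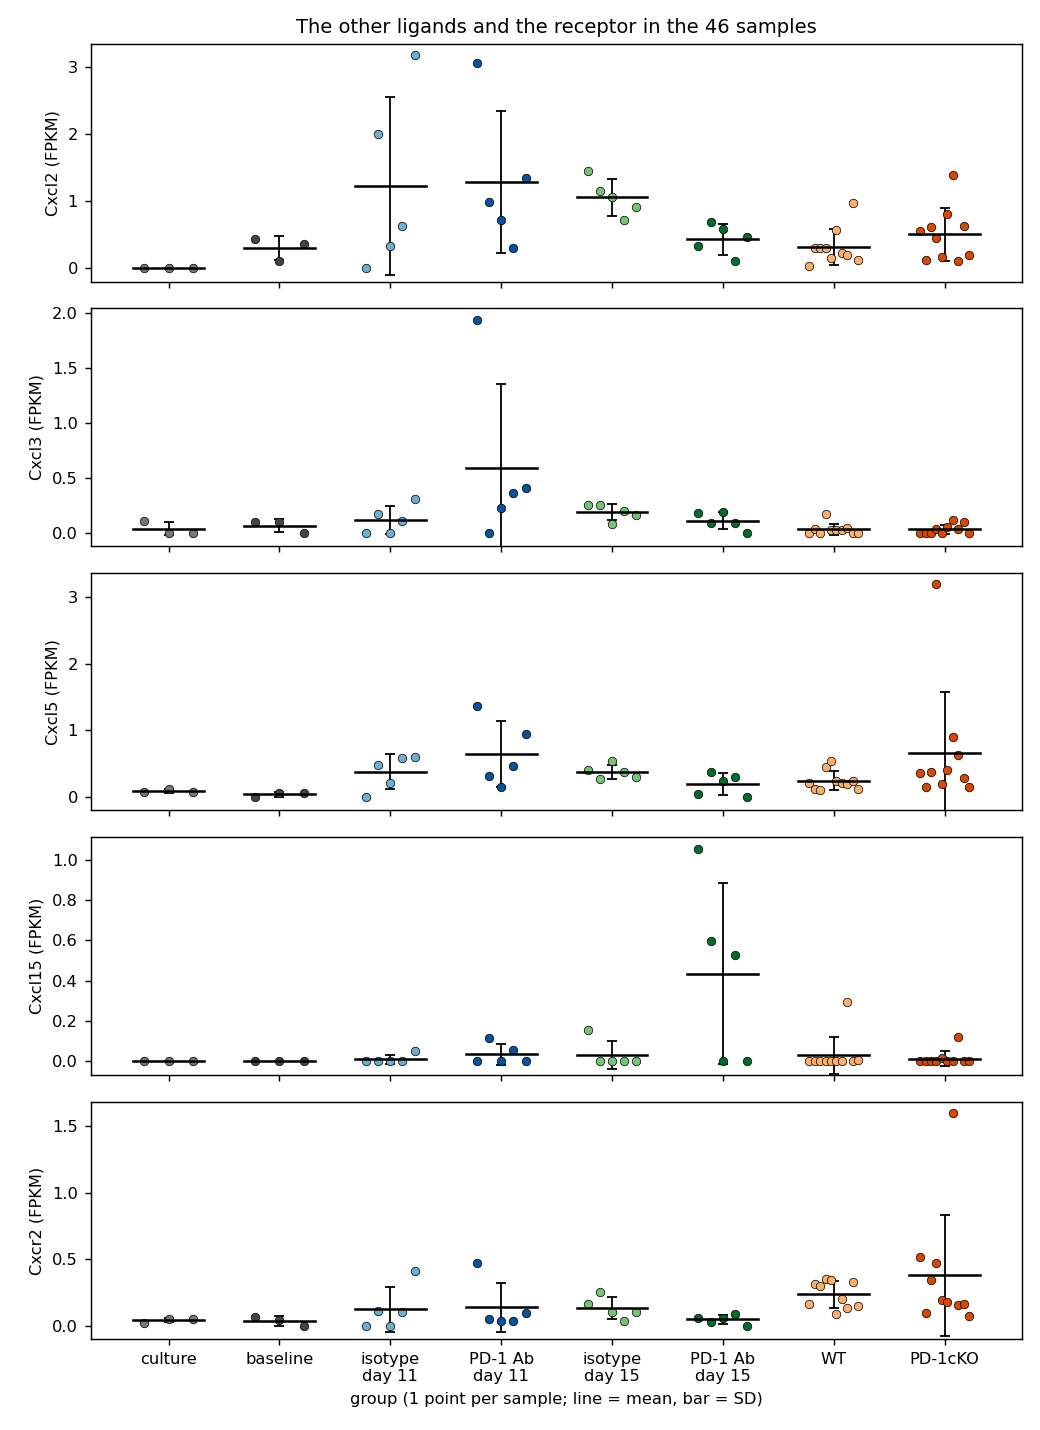
Cxcl2, Cxcl3, Cxcl5, Cxcl15 and Cxcr2 in FPKM (linear axes that differ between panels) in the 8 groups, with 1 point per sample, a line at the mean and a bar of 1 SD, cut off where it passes the lower edge. Cxcl2 is at 0 in all 3 cultures, Cxcl15 reaches 1.05 FPKM in a PD-1 Ab tumor of day 15, and single PD-1cKO tumors carry the highest Cxcl5 (3.19 FPKM) and Cxcr2 (1.60 FPKM).

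Cxcl1 was also lower in PD-1cKO tumors than in WT tumors of the conditional model. It averaged 1.59 ± 0.797 FPKM in PD-1cKO and 3.52 ± 1.56 FPKM in WT tumors (SD, n = 10 each), a log2 change of -1.18 (SE 0.27, 95% interval -1.75 to -0.61, adjusted p = 0.00333 in limma). Of the 10 PD-1cKO tumors, 9 lay below every WT tumor, in a comparison where 52.9% of all tested genes had an unadjusted p under 0.05. It was the single member to pass among 3 tested, where 8.07% of 15075 genes passed. The median of all tested genes stood at -0.20 here, so Cxcl1 was 0.97 below that median. Under median-of-ratios scaling the median was -0.04, the log2 change of Cxcl1 -1.03 (adjusted p = 0.00605 in limma), and the share of passing genes that rose went from 52.0% to 73.3%.

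The arms of this model are nearly separated by runs of consecutive sample identifiers. The first run held 7 PD-1cKO tumors and no WT tumor (Cxcl1 0.683 to 2.14 FPKM), the second 1 PD-1cKO tumor at 0.576 FPKM and 9 WT tumors at 2.42 to 7.35 FPKM, and the third 2 PD-1cKO tumors at 2.02 and 2.96 FPKM and 1 WT tumor at 2.99 FPKM. In both mixed runs the PD-1cKO tumors lay below the WT tumors, but each of these runs has 1 tumor in an arm, and in the later one the nearest values were 2.96 and 2.99 FPKM. With the run as a covariate the log2 change was -1.47 and missed the limit (adjusted p = 0.0356), and so did all genes, since 0 of them passed in that fit.

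Cxcl2 and Cxcl5 did not follow Cxcl1 in the conditional model. Cxcl2 averaged 0.503 ± 0.399 FPKM in PD-1cKO and 0.317 ± 0.274 in WT tumors (log2 change 0.48, 95% interval -0.35 to 1.31, adjusted p = 0.327 in limma), and with the run as a covariate its change was -0.02. Cxcl5, an epithelial ligand, ran from 0.150 to 3.19 FPKM with a median of 0.364 in PD-1cKO tumors and from 0.112 to 0.540 FPKM with a median of 0.209 in WT tumors (log2 change 0.73, 95% interval -0.09 to 1.54, adjusted p = 0.132). Cxcl3 averaged 0.0315 and 0.0321 FPKM. Cxcr2 averaged 0.381 ± 0.455 FPKM in PD-1cKO and 0.238 ± 0.1004 in WT, and its unfiltered log2 change of 0.20 (95% interval -0.50 to 0.90) did not pass.

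The make-up of the ligands shifted in some PD-1cKO tumors. Cxcl5 was the highest ligand in replicates 4 and 8, at 71.5% and 43.1% of the sum, and Cxcl2 in replicate 7, at 41.6%. In these 3 tumors Cxcl1 was 0.797, 0.576 and 0.942 FPKM. They were also the tumors with the most S100a9, at 37.1, 32.3 and 125 FPKM, against 0.462 to 5.03 FPKM in the other 7 PD-1cKO tumors and 0.146 to 7.14 FPKM in WT. Replicate 3 had Cxcl1 as low, at 0.683 FPKM, with S100a9 at 1.21 FPKM. The 3 tumors with the most S100a9 hold 3 of the 4 lowest Cxcl1 values, so leaving them out had to shrink the difference, which was then -0.83 on the log2 scale (adjusted p = 0.0273 in limma). Replicates 8, 7 and 4 also had the most Adipoq of their group, at 86.2, 17.3 and 6.71 FPKM, and replicates 8 and 4 the most Ptprc, at 89.9 and 84.8 FPKM. The part of adipose tissue, leukocytes and neutrophils in the shift was not tested.

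Over the 10 PD-1cKO tumors, whose values share the FPKM scaling, Cxcl1 and Cxcl5 varied in opposite directions (Pearson r = -0.69, Spearman rho = -0.81 on log2 values, and r = -0.93 without the 2 tumors farthest in Cxcl1). Cxcl1 and S100a9 did so with r = -0.64 (rho = -0.66, and r = -0.93 without the farthest 2). Those 2 were replicates 8 and 3. Replicate 3 was low in both Cxcl1 and S100a9, so leaving it out took away a tumor that ran against the pattern. Within the 7 PD-1cKO tumors of the first run the r were -0.68 and -0.43. In the 10 WT tumors r was 0.13 for Cxcl1 with Cxcl5 (0.24 without the farthest 2) and 0.46 for Cxcl1 with S100a9, which turned to -0.64 without the farthest 2 (rho = 0.10). Over all 43 tumors with group means subtracted, these r were 0.0011 and 0.19. These correlations are descriptions, and no test was run on them.

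The highest value of Cxcr2, the receptor, was 1.60 FPKM in PD-1cKO replicate 7, about 171 fragments, the tumor with the most S100a9 and the highest Ly6g. Over the 10 PD-1cKO tumors its r was 0.69 with S100a9 (rho = 0.58, and r = 0.55 without the 2 tumors farthest in Cxcr2), 0.63 with S100a8 (rho = 0.35, and 0.39), 0.54 with Csf3r (rho = 0.42, and 0.45), 0.73 with Cxcl2 (rho = 0.56, and 0.51) and -0.44 with Cxcl1 (rho = -0.39, and -0.70). In the 10 WT tumors r was 0.39 with S100a9, 0.57 with S100a8 and 0.36 with Csf3r. Over all 43 tumors with group means subtracted r was 0.66 with S100a9, 0.61 with Cxcl2 and 0.22 with Cxcl1. Cxcr1, the related receptor, was above 0 in 6 tumors and reached 0.765 FPKM. The cultures held 2 to 4 fragments of Cxcr2 each (0.0238 to 0.0535 FPKM), at which depth a tumor value of the same size cannot be told from that of cells without leukocytes.

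**Figure D4:**
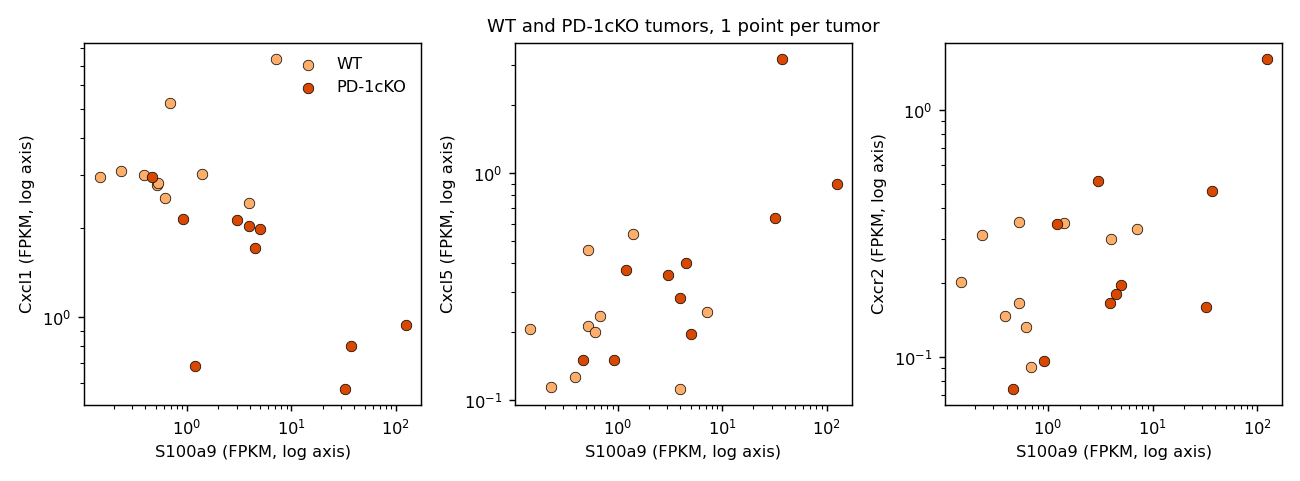
Cxcl1, Cxcl5 and Cxcr2 (FPKM, log axes) against S100a9 (FPKM, log axis) in the 10 WT and 10 PD-1cKO tumors, 1 point per tumor. The 3 PD-1cKO tumors with S100a9 from 32.3 to 125 FPKM have Cxcl1 under 1 FPKM, and the one at 125 FPKM has the highest Cxcr2.

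Of the 18 neutrophil markers, 16 were tested in the conditional model and 3 rose: S100a8 (24.8 against 1.32 FPKM, log2 change 2.47, adjusted p = 0.00944 in limma), Acod1 (6.66 against 2.52 FPKM) and Csf3r (5.63 against 2.12 FPKM). S100a9 averaged 21.3 and 1.56 FPKM and missed the limit (adjusted p = 0.0171). A few tumors carried the means of S100a8 and S100a9. S100a8 was 164 FPKM in PD-1cKO replicate 7, 34.2 in replicate 4 and 30.7 in replicate 8, against 1.26 to 4.48 FPKM in the other 7. Without replicate 7 it averaged 9.30 FPKM and no longer passed (log2 change 1.95, adjusted p = 0.0123 in limma). Acod1 and Csf3r still passed without replicate 7, at 6.18 and 5.13 FPKM. Without replicates 4, 7 and 8 Acod1 averaged 6.56 FPKM and passed. Csf3r then averaged 3.95 FPKM and did not pass (log2 change 0.87). Among granule genes of neutrophil precursors 4 of 7 tested rose, led by Ngp, Camp and Chil3. The summed level of the 8 precursor genes was 10.9 to 326 FPKM in PD-1cKO tumors and 2.33 to 32.1 FPKM in WT tumors. In PD-1cKO replicate 4, at the top of that range, Ngp, Camp, Mpo and Elane were 6.06, 3.49, 0.970 and 0.602 FPKM. In replicate 3, with a sum of 153 FPKM, they were 0.0481, 0.388, 0.366 and 0 FPKM. Other genes of the list thus carried those sums, and the part of neutrophil precursors in them was not tested. Ngp and Camp were highest in replicate 7, at 42.3 and 36.5 FPKM. Of the inducers and regulators, 19 were tested and Il1b alone passed, as lower (4.62 against 9.61 FPKM, log2 change -1.16, adjusted p = 0.00753 in limma). Csf3 was under the filter, with medians of 0.0757 FPKM in PD-1cKO and 0.1004 FPKM in WT tumors.

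In the same comparison 8 of 8 T cell markers rose (Cd8b1 from 1.71 to 7.79 FPKM), with 4 of 10 macrophage and monocyte markers (Cd68, C1qc and C1qb the largest), 4 of 8 fibroblast markers (Lum, Col1a2 and Col1a1 the largest) and 1 of 6 endothelial markers (Vwf). Of the other genes of the axis, Cxcl12, which retains neutrophils in bone marrow, rose from 7.99 to 29.4 FPKM, and the neighbour gene Pf4 rose from 18.7 to 40.6 FPKM. Adipocyte, keratinocyte, platelet and epithelial lists had none past the limits. Their part in the lower Cxcl1 was not tested.

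The effects in the 2 models were compared directly as (PD-1 Ab minus isotype, day 15) minus (PD-1cKO minus WT). None of 3 members tested passed, where 0.0914% of 16404 genes did, and 2 members had an unadjusted p under 0.05, as did 15.8% of all genes tested. The difference was -0.63 on the log2 scale for Cxcl1 (95% interval -1.53 to 0.26, adjusted p = 0.451 in limma), so a difference of the Cxcl1 effect between the models was not shown. The median of all tested genes was 0.23 here, and 0.03 under median-of-ratios scaling. For Cxcl2 it was -1.71 (95% interval -2.97 to -0.46, adjusted p = 0.194), and for Cxcl5 -1.65 (95% interval -2.93 to -0.37, adjusted p = 0.217). Of the neutrophil markers none passed this test, with S100a8 at -4.47 (adjusted p = 0.0501).

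**Figure D5:**
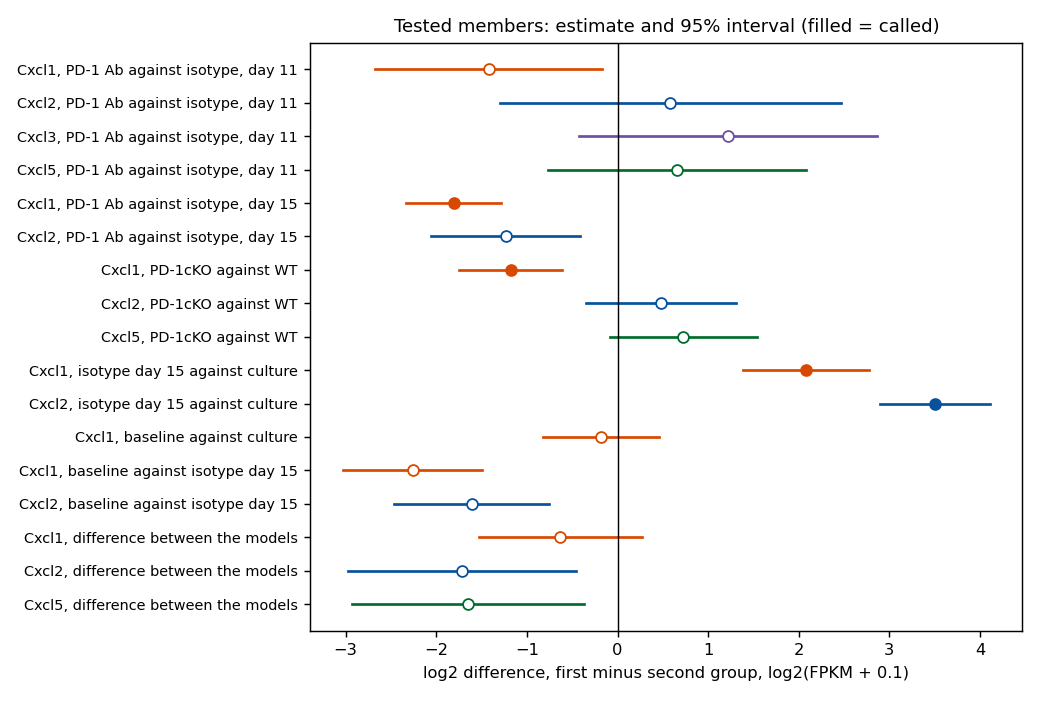
Log2 difference (first minus second group, x axis) of the tested members in each of the 7 comparisons, with the 95% interval from limma. Filled points passed the limits: Cxcl1 at -1.81 and -1.18 in the PD-1 comparisons, and Cxcl1 and Cxcl2 in isotype day 15 against culture, where the Cxcl2 estimate depends on the 0.1 FPKM added because the cultures are at 0.

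The last comparisons asked which of these RNAs the carcinoma cells carried in culture. Isotype tumors of day 15 had more Cxcl1 than cultures (15.5 ± 5.45, n = 5, against 3.41 ± 0.620 FPKM, n = 3), a log2 change of 2.08 (SE 0.31, adjusted p = 4.40e-04 in limma). Cxcl2 was 0 in all 3 cultures and 0.720 to 1.45 FPKM in those tumors. Against a floor of 3 fragments over the 3 cultures together it was at least 29.6-fold higher. Both of the 2 members tested rose, where 21.3% of 15199 genes passed. Cxcl3 was above 0 in 1 culture, and Cxcl5 was 0.0688 to 0.119 FPKM in cultures and 0.272 to 0.545 FPKM in isotype tumors, both under the filter. Fitted without a filter Cxcl5 also passed (log2 change 1.35, adjusted p = 0.00347 in limma), and Cxcl3 did not (adjusted p = 0.0326). These libraries differ in cell make-up throughout: Il1b and Csf3r were listed at 0 in the 3 cultures and at 18.2 to 34.2 and 2.80 to 4.74 FPKM in the tumors, and all 15 neutrophil and all 10 macrophage markers tested rose. Of 22 inducers and regulators tested 11 rose, with Il1b, Il1rn and Tnf the largest.

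No difference in Cxcl1, the 1 member tested, was shown between baseline tumors and cultures (log2 change -0.18, 95% interval -0.82 to 0.46, adjusted p = 0.593 in limma), where 15.8% of 15217 genes passed. Cxcl2 was 0.437, 0.107 and 0.359 FPKM in the baseline tumors, about 1 to 5 fragments each, against 0 in the cultures. The leukocyte marker Ptprc averaged 18.0 FPKM in baseline tumors, 6 of 11 neutrophil markers tested rose against culture, and of 19 inducers and regulators 6 rose and 1 fell.

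Between baseline and isotype tumors of day 15, Cxcl1 was lower at baseline by 2.26 on the log2 scale (SE 0.34, 95% interval -3.03 to -1.49) with no overlap, and missed the limit (adjusted p = 0.0109 in limma). Cxcl2 was lower by 1.61 (SE 0.38, adjusted p = 0.0560). None of the 2 members tested passed, where 0.595% of 14967 genes did, and both had an unadjusted p under 0.05, as did 17.7% of all genes tested. Without isotype replicate 4, the lowest of that group, Cxcl1 passed (log2 change -2.50, adjusted p = 0.00445 in limma). Leaving out the control nearest to baseline had to widen the difference, so this is no check of stability. Cxcl5 was 0 to 0.0634 FPKM at baseline and 0.272 to 0.545 FPKM in isotype tumors, also without overlap, and below the filter. Among the inducers, Ier3, an immediate early gene, was the 1 of 22 that passed (33.97 against 98.7 FPKM). Of the neutrophil markers 0 of 15 tested passed, with S100a9 at 0.0650 and 3.64 FPKM (adjusted p = 0.0131). These last 3 comparisons share samples, so their values are not independent. Cultures, baseline tumors and isotype tumors of day 15 also lie in separate ranges of sample identifiers, so group and range cannot be told apart.

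The genes whose variation was most like that of Cxcl1 over the 43 tumors, with group means subtracted and among 13227 genes averaging 1 FPKM or more over tumors, were Cdh10 (r = 0.64), Hist1h2bj (r = 0.62) and Kcne3 (r = 0.61). For Cxcl2 they were Jam3 (r = 0.72), Pdpn (r = 0.72) and Kdelr3 (r = 0.68). The r between Cxcl1 and Cxcl2 themselves was 0.48. They are the highest of many and carry no test.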

How the data were processed

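The authors prepared stranded total RNA libraries after ribosomal depletion, read paired ends of 50 bases, aligned them to the mouse B38 genome (OSA, run from Omicsoft Array Studio) and quantified genes on Ensembl models. The deposited values are FPKM, which the authors computed per gene from fragments, transcript length and mapped fragments. The study tested raw counts with DESeq2, and counts were not used here.

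All 48795 genes and 46 samples were read, and groups came from the sample labels. Values were analysed as log2(FPKM + 0.1) without rescaling. Genes averaging 0.5 FPKM or more in a compared group entered limma (version 3.58.1 under R 4.3.3, eBayes with a trend), fitted to the compared groups alone, and p-values were adjusted over all tested genes by Benjamini-Hochberg. A gene passed at an adjusted p under 0.01 and at least a 2-fold change. Fold changes on this scale understate those of low genes. Each sample enters as 1 replicate.

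Depth was estimated from genes with 1 transcript, whose low FPKM values times length fall on whole steps: 79.5% to 87.2% of low values lay within 0.1 of a whole step, and 66.9% in isotype replicate 1 of day 11. It is relative, since the step was taken as 1 fragment, and fragments per gene assume the coding transcript. Permutation tests used 100000 resamples where exact enumeration was not made. The 6 genes and the lists of markers were chosen with earlier results of these data known. Named genes are the 6, up to 3 passing genes per list by size of change, Ly6g, Csf3r, S100a8, S100a9 and Ptprc, and those said to be chosen later. Beside them, Il1b, Csf3, Il17a, Cxcr1, Tnf, Mpo, Elane and the epithelial keratins are given as members of the lists. The fit was tested on simulated data. Alternatives were other added values, filters, scalings, fits, weights, a replicate block, identifier runs and leaving out samples. Leaving out groups of tumors together was chosen after seeing the data. Python 3.11.15, numpy 2.4.6, pandas 2.3.3, scipy 1.17.1 and matplotlib 3.10.9 were used.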

Additional observations from a re-analysis of the deposited data

Results flagged for a closer look

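In groups of 5 or 10 tumors, the gap between the most extreme tumor and its nearest neighbour was set against the range of the group (Dixon's test at 95%) for the 6 genes and the defining neutrophil markers. It marked 12 of 58 sets of values, where chance marks about 1 in 20, and most of them hold a single tumor above 0 among values at or near 0.

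Cxcl15 was highest at 0.0492 FPKM in isotype replicate 5 of day 11, at 0.157 FPKM in isotype replicate 1 of day 15, at 0.295 FPKM in WT replicate 8 and at 0.121 FPKM in PD-1cKO replicate 8. The WT tumor had the highest Adipoq (8.42 FPKM) and Plin1 (5.23 FPKM) of its group, and the part of surrounding tissue was not tested. Cxcl3 was highest at 0.168 FPKM in WT replicate 4. Cxcr2 was highest at 0.469 FPKM in PD-1 Ab replicate 1 of day 11, the tumor that also led its group in Cxcl1, Cxcl2, Cxcl3 and Cxcl5.

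Ly6g was highest at 0.111 FPKM in isotype replicate 5 of day 11, at 0.0990 FPKM in PD-1 Ab replicate 4 of day 15, at 0.153 FPKM in WT replicate 5 and at 1.39 FPKM in PD-1cKO replicate 7. Csf3r was lowest at 1.15 FPKM in isotype replicate 1 of day 11, the library with the high mitochondrial share, and at 6.62 FPKM in PD-1 Ab replicate 5 of day 15.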

How the results depend on the processing

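The lower Cxcl1 under PD-1 Ab at day 15 and the higher Cxcl1 and Cxcl2 of isotype tumors against culture kept their direction and their side of the limits in all 20 and all 18 other fits of each, with log2 changes of -2.05 to -1.62, 1.84 to 2.34 and 1.03 to 6.70, the last following the FPKM added to cultures at 0. At day 15 the number of members past the limits was 1 and became 2 with array weights and 2 at an adjusted p under 0.05 with no fold limit, Cxcl2 being the addition. For PD-1cKO against WT it was 1 and became 0 with 1 FPKM added, 0 with array weights (the log2 change of Cxcl1 was -0.81 and -0.83, under the fold limit), 0 with identifier runs as a covariate (adjusted p = 0.0356 in limma) and 0 without PD-1cKO replicates 4, 7 and 8 together, which were chosen for their high S100a8 and S100a9 but hold 3 of the 4 lowest Cxcl1 values, so that this last change follows from the choice and is no check of stability. For isotype tumors against culture it was 2 and became 3 with no filter, with Cxcl5 added. For baseline against isotype day 15 it was 0 and became 1 with 1 FPKM added, 1 with all groups in 1 fit, 2 with array weights and 1 at an adjusted p under 0.05 with no fold limit. Leaving out each tumor in turn gave 0 to 1 member there, always 1 at day 15 and for PD-1cKO, 2 for isotype tumors against culture and 0 in the other 3 comparisons. Directions turned for Cxcl2 at day 11 without isotype replicate 1 (leaving out single tumors gave -0.14 to 1.121) and without replicate 1 of both arms (-0.52), for Cxcl2 in PD-1cKO with the runs (-0.019) and for Cxcl1 of baseline against culture without baseline replicate 1 (leaving out single samples gave -0.46 to 0.080), and none of these passed a limit. The causes were not tested.

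The replicate numbers are not stated to pair samples, and same-numbered tumors did not deviate together (median r 0.03, -0.02 and -4.68e-05 at day 11, at day 15 and in the conditional model). With a replicate block the counts of members past the limits were 0 at day 11, 1 at day 15, 1 for PD-1cKO, 2 for isotype against culture and 0 in the other 3, as without it, while the genes past the limits at day 15 went from 799 to 316 and those of baseline against isotype from 89 to 0. Over the alternatives the genes past the limits ranged from 0 to 22 at day 11, 316 to 1773 at day 15, 0 to 1871 for PD-1cKO, 2234 to 3680 for isotype against culture, 1617 to 2634 for baseline against culture, 0 to 398 for baseline against isotype and 0 to 603 for the difference between the models. Depth limits Cxcl3 and Cxcl15 most, with estimated sums of 79 and 84 fragments over all samples, against 547 to 4605 for the other 4 members.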
